A study of Homo sapiens with 6 samples.

Results

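FOS and its relatives of the FOS, JUN and EGR families are transcription factors whose genes are switched on within minutes of a growth factor, stress or calcium signal. They were taken here by symbol: FOS, FOSB, FOSL1 and FOSL2, then JUN, JUNB and JUND, then EGR1, EGR2 and EGR3. Of these 10 symbols 9 were measured, among 14884 genes in all, and EGR2 was not measured here. Each gene was read from its probe set (the group of array probes summarised to 1 value) with the highest mean over the 6 arrays. The arrays held total RNA of the U-87 MG line, long established from a human glioblastoma. The 3 exposed cultures spent 54 h, from 24 h after seeding, in a culture box inside a Faraday chamber under RGFIELDS electromagnetic fields that were aimed at CHI3L1, HSP70, hsa-miRNA-381 and a mutated alpha-kinase 2 gene. The 3 unexposed cultures spent the same 54 h in a box outside the chamber, without the fields. The field therefore cannot be told apart below from the place inside the chamber or from a difference between the boxes. All 6 were grown in the same medium with serum from 1 cell line, and the labels call the replicates biological.

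FOS proteins cannot pair with each other and bind DNA as dimers with a JUN protein through a leucine zipper, and such a dimer is called AP-1. JUN proteins can also pair among themselves, and JUNB and JUND often act as weaker or opposing partners of JUN. EGR1 and EGR3 are zinc finger factors that bind GC-rich sites, and their activity is held back by the co-repressors NAB1 and NAB2. In most cells a stimulus raises FOS, FOSB and EGR1 within the first hour and their messenger RNAs then decay quickly, whereas FOSL1, FOSL2 and JUND RNAs last longer. FOSL1 is known for high levels in mesenchymal glioblastoma. A measurement made after 54 h of continuous exposure therefore falls long after any first wave raised by its start. It cannot tell a lasting level of these genes from a response to a later signal.

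The sequences just upstream of the start sites of FOS, JUNB and EGR1, which had the highest log2 changes among the members, are shown with that of FOSB, which had the lowest. Each is the 250 bases before the RefSeq start site on GRCh38.p14, written 5′ to 3′ along the gene. Capitals mark matches, on either strand, to the motifs searched.
FOS, chr14:75278578-75278827, plus strand: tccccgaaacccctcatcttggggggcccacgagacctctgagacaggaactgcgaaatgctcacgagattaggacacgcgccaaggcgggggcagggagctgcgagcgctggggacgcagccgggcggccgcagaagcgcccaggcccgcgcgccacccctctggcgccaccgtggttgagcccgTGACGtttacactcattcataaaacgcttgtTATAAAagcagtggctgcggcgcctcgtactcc
JUNB, chr19:12791236-12791485, plus strand: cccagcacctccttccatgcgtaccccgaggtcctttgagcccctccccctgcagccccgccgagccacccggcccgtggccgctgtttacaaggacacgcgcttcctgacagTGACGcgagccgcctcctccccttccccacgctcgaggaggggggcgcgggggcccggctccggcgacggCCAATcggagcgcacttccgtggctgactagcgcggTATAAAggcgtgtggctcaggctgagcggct
EGR1, chr5:138465229-138465478, plus strand: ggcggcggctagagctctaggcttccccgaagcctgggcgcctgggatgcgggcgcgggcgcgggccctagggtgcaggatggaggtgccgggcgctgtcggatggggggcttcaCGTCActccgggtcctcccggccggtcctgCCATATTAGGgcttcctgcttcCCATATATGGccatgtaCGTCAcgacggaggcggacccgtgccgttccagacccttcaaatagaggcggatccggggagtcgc
FOSB, chr19:45467746-45467995, plus strand: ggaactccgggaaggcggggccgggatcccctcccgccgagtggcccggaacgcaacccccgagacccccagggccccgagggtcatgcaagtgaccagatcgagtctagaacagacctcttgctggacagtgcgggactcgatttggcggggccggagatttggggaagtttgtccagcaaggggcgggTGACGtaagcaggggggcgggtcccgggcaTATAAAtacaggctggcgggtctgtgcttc

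Upstream windows of 7 of the 9 measured members were searched. No window was at hand for FOSL1. EGR3 was left out of the search by a filter on its chromosome, so the counts below do not cover it. All 7 held TGACG, the core of the cyclic AMP response element (CRE) bound by the CREB and ATF factors. The same letters stood in 21.2% of all 35116 windows of this length in the RefSeq table, in which a gene can have several start sites. In FOS the match began 64 bases before the start site, in FOSB 60 and in JUNB 137, while EGR1 had 2 such matches, at 135 and 66. The whole CRE, TGACGTCA, of which TGACG is a part, was in JUND alone among the 7 and in 1.65% of all windows. The CArG box, to which the serum response factor SRF binds, occurred in EGR1 alone among the 7 and in 1.16% of all windows. Its 2 matches in EGR1 began 105 and 83 bases upstream. TATAAA, the TATA box, was in FOS, FOSB and JUNB and in 10.7% of all windows. CCAAT was in JUN, JUNB and JUND and in 32.0% of windows. The AP-1 site TGANTCA and the EGR site GCGTGGGCG, found in 6.57% and 0.720% of all windows, had 0 exact matches in the 7. FOSB, with a negative change, thus carried the same kinds of match as FOS. These matches describe letters in a window and were not tested as binding sites. Sites farther upstream and variants of the motifs were not searched, so 0 matches do not mean that a gene lacks such a site.

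With all 6 arrays, 1 of the 9 members passed the threshold, an adjusted p of 0.05. This was FOS, which rose, while over all genes 3.06% passed in either direction, 1.40% higher and 1.67% lower. At an unadjusted p under 0.05 in limma there were 5 of the 9 and 18.9% of all genes. JUNB and EGR1 had positive changes and FOSB and FOSL1 negative ones that did not pass. For 6 of the 9 the exposed and unexposed values did not overlap, 4 with exposed higher and 2 with exposed lower, while the same held for 27.0% of all genes (13.2% higher and 13.8% lower). The median log2 change of the 9 was 0.07, beside 0.0029 over all genes. All changes are log2 differences, exposed minus unexposed, and p-values come from limma with Benjamini-Hochberg adjustment across the genes. With 3 arrays against 3 an exact two-sided permutation test of 1 gene cannot give a p under 0.1, and each of these 6 members had that value. The values are averages over whole cultures, so fewer cells with a transcript and less of it per cell cannot be told apart.

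**Figure D1:**
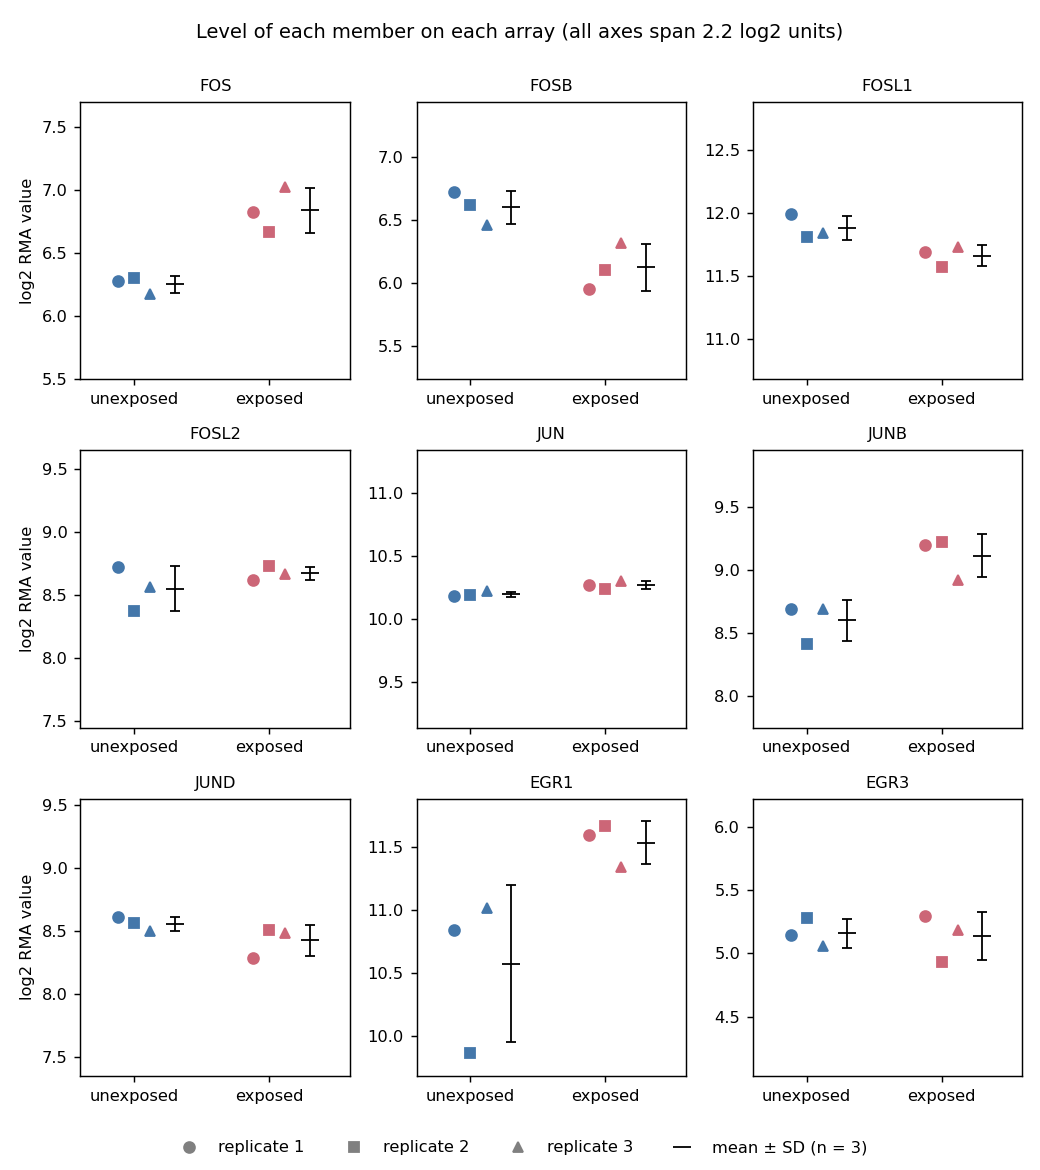
Log2 RMA value (vertical axis) of the 9 measured members on each array, by group and replicate, with mean ± SD (n = 3) as a bar beside the points; all vertical axes span the same number of log2 units. FOS, JUNB, EGR1 and JUN have all exposed points above all unexposed points, FOSB and FOSL1 have them below, and unexposed replicate 2 lies far under its group for EGR1.

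In the FOS family, FOS itself, the rapidly induced partner of JUN proteins, stood at 6.28, 6.30 and 6.18 in unexposed replicates 1 to 3 and at 6.83, 6.67 and 7.02 in exposed replicates 1 to 3. Every exposed array lay above every unexposed array, and exposed replicate 3 was the highest. The group means were 6.25 ± 0.07 and 6.84 ± 0.18 (SD, n = 3 each). FOS rose by 0.59 (SE 0.11, 95% interval 0.34 to 0.83), or 1.50-fold, with a limma adjusted p of 0.0344. The call did not survive the loss of any array: the limma adjusted p was 0.0601 without exposed replicate 3, 0.0701 without unexposed replicate 1 and 0.104 to 0.129 without any other, with changes of 0.49 to 0.67.

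FOSB, another rapidly induced activator of the family, stood at 6.72, 6.62 and 6.46 in unexposed and at 5.95, 6.10 and 6.31 in exposed cells. All exposed arrays were below all unexposed ones, with exposed replicate 3 nearest to them. The change was -0.48 (SE 0.12, interval -0.75 to -0.21), which is not past the threshold (limma adjusted p = 0.0728). The opposite signs of FOS and FOSB were not tested against each other.

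FOSL1, or FRA1, lacks the strong activation domain of FOS and is induced later. It stood at 11.99, 11.81 and 11.84 in unexposed and at 11.69, 11.57 and 11.73 in exposed cells. The groups did not overlap, with a gap between 11.81 and 11.73. Its change of -0.22 (SE 0.07, interval -0.37 to -0.06) was not past it (limma adjusted p = 0.125). FOSL2, or FRA2, stood at 8.72, 8.37 and 8.56 in unexposed and at 8.62, 8.73 and 8.67 in exposed cells. Here the groups overlapped, and unexposed replicate 2 was the lowest of the 6 arrays. The change was 0.12 (interval -0.09 to 0.34, limma adjusted p = 0.558), and 0.03 without unexposed replicate 2 but 0.21 without unexposed replicate 1.

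In the JUN family, JUNB stood at 8.69, 8.42 and 8.69 in unexposed and at 9.20, 9.22 and 8.92 in exposed cells. All exposed arrays lay above all unexposed ones, with unexposed replicate 2 and exposed replicate 3 the lowest of their groups. The means were 8.60 ± 0.16 and 9.11 ± 0.17 (SD, n = 3 each). The change of 0.51 (SE 0.11, interval 0.26 to 0.77), or 1.43-fold, had a limma adjusted p of 0.0510, just outside the threshold. Without exposed replicate 3 it was 0.61 and passed (limma adjusted p = 0.0403), and without any other array it was 0.42 to 0.56 and did not.

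JUN, the founding member and the usual partner of FOS, had the narrowest spread of all members. It stood at 10.19, 10.19 and 10.22 in unexposed and at 10.27, 10.24 and 10.30 in exposed cells. The groups did not overlap but lay close together, with a change of 0.07 (SE 0.05, interval -0.04 to 0.18, limma adjusted p = 0.508). The upper bound for JUN, 0.18, lies under the lower bounds for FOS and JUNB, 0.34 and 0.26, although the differences between genes were not tested. JUND, which is expressed steadily in many cells, stood at 8.61, 8.56 and 8.50 in unexposed and at 8.29, 8.50 and 8.48 in exposed cells. Exposed replicate 2 overlapped the unexposed arrays, and the change was -0.13 (SE 0.08, interval -0.31 to 0.05, limma adjusted p = 0.416), and -0.06 without exposed replicate 1.

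In the EGR family, EGR1 had the largest change of the 9 members and also the widest spread. It stood at 10.84, 9.86 and 11.01 in unexposed and at 11.59, 11.67 and 11.34 in exposed cells. All exposed arrays were above all unexposed ones, but unexposed replicate 2 lay about as far below its own group as the groups lay apart. The means were 10.57 ± 0.62 and 11.53 ± 0.17 (SD, n = 3 each). The change of 0.96 (SE 0.27, interval 0.34 to 1.59), or 1.95-fold, was not past the threshold (limma adjusted p = 0.101). Without unexposed replicate 2 it was 0.61 (limma adjusted p = 0.0977). EGR3, itself a target of calcium signalling in lymphocytes and neurons, stood at 5.14, 5.28 and 5.06 in unexposed and at 5.30, 4.93 and 5.19 in exposed cells. The groups overlapped fully, and the change was -0.02 (interval -0.32 to 0.27, limma adjusted p = 0.960).

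**Figure D2:**
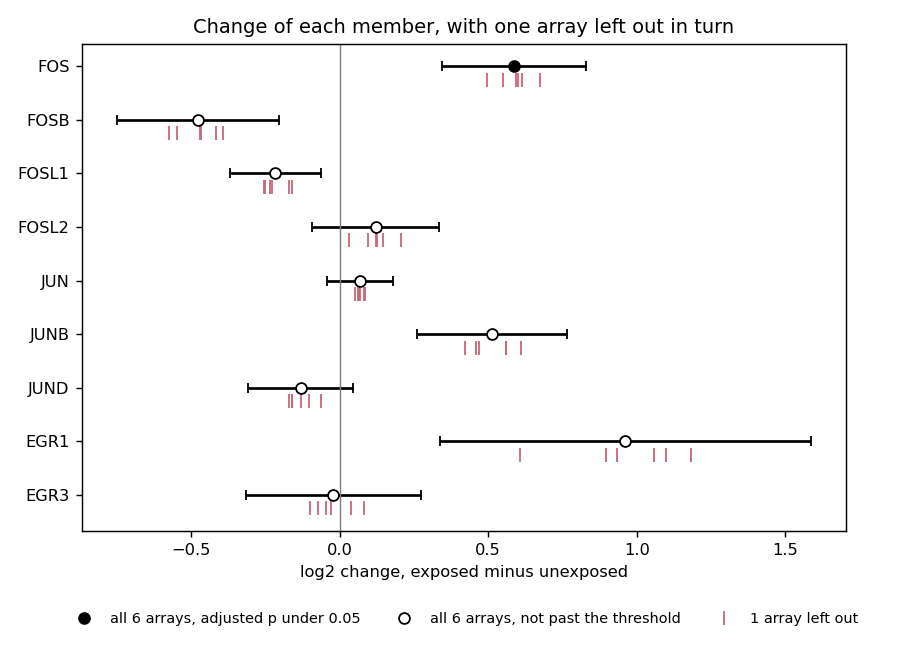
Log2 change (exposed minus unexposed, horizontal axis) of each of the 9 members with its 95% interval from limma over all 6 arrays, as a filled point where the adjusted p is under 0.05, and below it the 6 changes with 1 array left out. FOS alone is filled, at 0.59, the EGR1 change falls to 0.61 without unexposed replicate 2, and the EGR3 changes lie on both sides of 0.

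FOS, FOSB and EGR1 each had a further, dimmer probe set under the same symbol. The annotation used here does not say whether it reads the same transcript or strand, so its values, and gene averages that include it, may not be second readings of the gene. That of EGR1 (17000463) stood at 5.96, 5.07 and 6.04 in unexposed and at 6.99, 6.73 and 6.56 in exposed cells. It repeated the order of the groups and the low unexposed replicate 2, with a change of 1.07 (SE 0.25), beside 0.96 for the brighter one (16989736). That of FOS (16794955) stood at 5.04, 4.48 and 4.84 in unexposed and at 4.94, 5.31 and 5.38 in exposed cells. Its groups overlapped, since exposed replicate 1 lay below unexposed replicate 1, and its change was 0.42 (SE 0.18), beside 0.59 for the brighter FOS probe set (16786587). That of FOSB (16873329) stood at 5.28, 5.27 and 5.32 in unexposed and at 5.01, 5.12 and 5.55 in exposed cells. Its groups overlapped and its change was -0.06 (SE 0.15), beside -0.48 for the brighter FOSB probe set (16863287). Over all 53617 probe sets, of which 0.705% passed, 0 of the 12 probe sets of members did, with 7 at an unadjusted p under 0.05 in limma, beside 13.7% of all probe sets. The limma adjusted p over probe sets was 0.0551 for FOS, 0.0834 for JUNB and 0.102 for the dimmer EGR1 probe set.

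**Figure D3:**
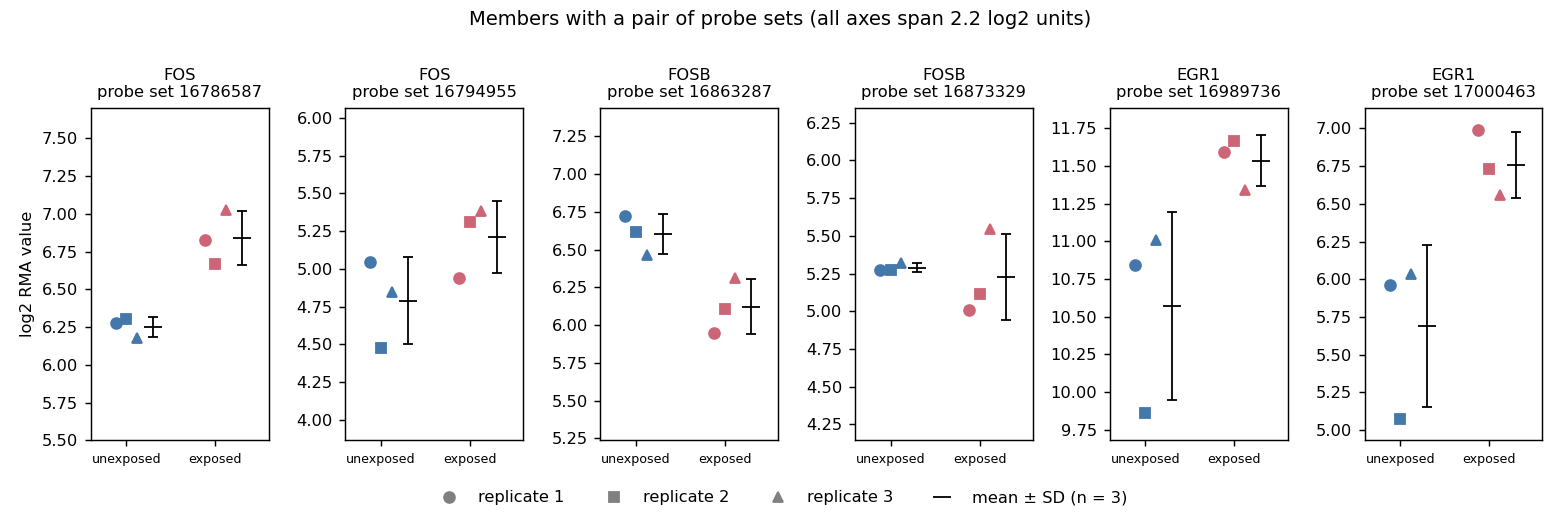
Log2 RMA values (vertical axis, same span throughout) on each array for the brighter and the dimmer probe set of FOS, FOSB and EGR1, with mean ± SD (n = 3). The EGR1 pair shows the same pattern over the arrays, the dimmer FOS probe set overlaps between groups, and the dimmer FOSB probe set differs by -0.06.

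The genes around these factors were then read from lists chosen with earlier results of these data known. In 7 lists with 143 different genes, 89 were measured, and 5 rose and 5 fell, beside the 3.06% that passed over all genes. Among 17 measured bZIP and EGR partners, the proteins that pair or compete with the members, 0 passed. At an unadjusted p under 0.05 in limma there were 6, beside 18.9% of all genes. ATF2, which dimerises with JUN on CRE sites, was at 0.42 (limma adjusted p = 0.0648) and the membrane-bound factor CREB3 at 0.21. MAFG, a small MAF protein, was at -0.25, and NAB2, which EGR1 itself induces and which represses it, at -0.22 (limma adjusted p = 0.190). The median of this list was -0.07, and 0.02 after centring each array on the ribosomal protein genes.

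Of 17 other measured immediate early genes, 2 rose, 1 fell and 14 did not pass, with a median of 0.02. RHOB, a small GTPase of endosomes and stress fibres, stood at 7.76, 7.19 and 7.64 in unexposed and at 8.44, 8.84 and 8.37 in exposed cells. As with EGR1 and JUNB, unexposed replicate 2 was the lowest array. RHOB rose by 1.02 (SE 0.17, limma adjusted p = 0.0324). TRIB1, a pseudokinase that guides proteins to degradation, rose by 0.59 (SE 0.10). SOCS3, an inhibitor of cytokine receptor signalling, fell by 0.39 (SE 0.06), and CSRNP1, a nuclear factor first found as induced by AXIN1, was at -0.36 without passing (limma adjusted p = 0.0816). With exposed replicate 3 left out these 3 calls stayed, and with any other array left out they were lost (limma adjusted p up to 0.132).

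The kinases and phosphatases that control these genes were measured in part. Among 15 measured genes of the ERK, JNK and p38 cascades, with EGFR at their head, EGFR fell by 0.30 (SE 0.05, limma adjusted p = 0.0348) and 14 did not pass, with a median of -0.11. MAPK9, the JNK2 kinase that phosphorylates JUN, stood at 7.78, 7.81 and 7.60 in unexposed and at 7.30, 7.28 and 7.43 in exposed cells. The MAPK9 groups did not overlap, and its change of -0.39 had a limma adjusted p of 0.0517. MAPK11, a p38 kinase, was at 0.36 and MAP2K2, an activator of ERK, at 0.41, both dim and not past the threshold. The EGFR call was lost whichever array was left out (limma adjusted p = 0.0684 to 0.120).

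All 10 phosphatases of the DUSP family in the list, which switch MAP kinases off, were measured. Of these 8 had positive changes, beside 7543 of all 14884 genes, and 1 passed. DUSP10, which acts on JNK and p38, stood at 8.43, 8.20 and 8.40 in unexposed and at 9.12, 9.20 and 8.95 in exposed cells. The groups lay well apart, and DUSP10 rose by 0.75 (SE 0.09), or 1.68-fold, with a limma adjusted p of 0.0282. It passed without unexposed replicate 1 or exposed replicate 3 and not without any other array (limma adjusted p up to 0.120). DUSP16, another JNK phosphatase, was at 0.43 (limma adjusted p = 0.0509), DUSP7 at -0.14 and DUSP8 at -0.01. DUSP1, an immediate early gene itself and named after its values were seen, was at 0.24 (limma adjusted p = 0.116). The DUSP median was 0.09.

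Of the SRF group, which drives FOS and EGR1 through CArG boxes, 4 of 7 genes were measured and 0 passed. At an unadjusted p under 0.05 in limma there were 2, beside 18.9% of all genes. SRF stood at 8.56, 8.57 and 8.58 in unexposed and at 8.94, 8.86 and 8.75 in exposed cells. All exposed arrays were above the narrow unexposed range, and the change was 0.28 (SE 0.06, limma adjusted p = 0.0644). MYOCD, a muscle co-activator of SRF, was dim and at 0.45, while MRTFA and MRTFB, the widely expressed co-activators, were both at -0.03.

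Among 17 measured genes reported as AP-1 targets, 1 rose, 3 fell and 13 did not pass, with a median of -0.12. MMP1, the interstitial collagenase whose promoter is a textbook AP-1 target, was named after its values were seen. It stood at 9.46, 9.45 and 9.54 in unexposed and at 8.71, 8.37 and 9.02 in exposed cells. MMP1 was lower on every exposed array and fell by 0.78 (SE 0.14, limma adjusted p = 0.0364). The cytokine IL11 fell by 0.55 (SE 0.08) and the cyclin CCND1 by 0.30 (SE 0.05), while SPP1, or osteopontin, rose by 0.44 (SE 0.06). PTGS2, the inducible cyclooxygenase, was at 0.28 without passing. Without exposed replicate 3, IL11, MMP1 and SPP1 still passed, SPP1 also without unexposed replicate 1, and CCND1 was lost whichever array was left out (limma adjusted p = 0.0549 to 0.120).

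Of 10 measured genes reported as EGR1 targets, GDF15, a stress cytokine, rose and 9 did not pass, with a median of -0.10. GDF15 stood at 8.47, 8.01 and 8.31 in unexposed and at 9.25, 9.36 and 8.90 in exposed cells. Its lowest unexposed array was replicate 2, as for EGR1, and its highest exposed array also was replicate 2. JUNB, RHOB, DUSP10 and TRIB1 had the same lowest and highest arrays, so this order is not particular to EGR1 and GDF15. GDF15 rose by 0.91 (SE 0.15, limma adjusted p = 0.0312), and it passed without exposed replicate 3 and not without any other array (limma adjusted p up to 0.120). FGF2 was at 0.22, FN1 at -0.17 and NAB2, which is in both lists, at -0.22.

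**Figure D4:**
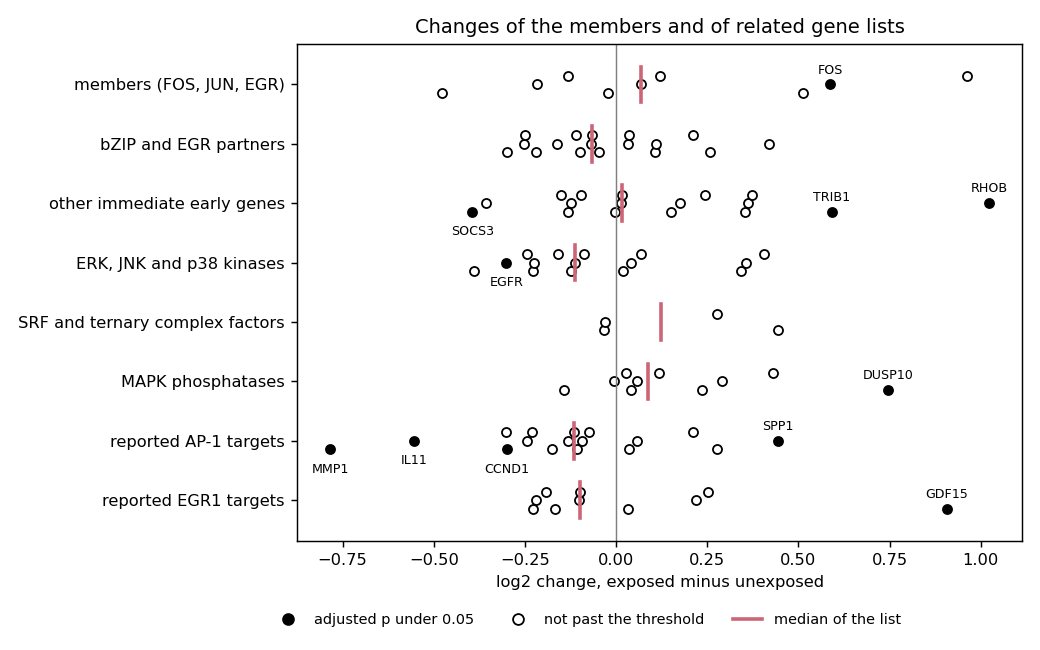
Log2 change (exposed minus unexposed, horizontal axis) of every measured gene in the members' set and in the 7 related lists (rows), as filled and named points where limma's adjusted p is under 0.05 and open points otherwise, with each list's median as a vertical bar. FOS is the one filled member, DUSP10, RHOB, TRIB1, SPP1 and GDF15 lie to the right, and MMP1, IL11, SOCS3, EGFR and CCND1 to the left.

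The genes whose values followed FOS and JUNB most closely were ranked by Pearson r over the 6 arrays, among 7008 other genes with a mean above the median. Such an r is a description of 6 points that share a group difference. For FOS the 5 highest were MAGT1 (0.988), MUS81 (0.984), ATMIN (0.980), RIDA (0.980) and ARL6IP5 (0.979), and the 3 lowest CMTR2 (-0.995), IP6K1 (-0.993) and JAGN1 (-0.990). Among these, ARL6IP5, a membrane protein of the endoplasmic reticulum, rose by 0.30 (limma adjusted p = 0.0336) and the others did not pass. For JUNB the 5 highest were DRAM1 (0.995), TMUB2 (0.995), NOMO1 (0.995), GRN (0.993) and HSPH1 (0.993), and the 3 lowest PRMT3 (-0.998), ARFGAP2 (-0.997) and DIAPH3 (-0.996). Of these DRAM1, a lysosomal protein of autophagy, rose by 0.66 (limma adjusted p = 0.0403), HSPH1, a partner of HSP70, rose by 0.55, and DIAPH3, a formin that builds actin filaments, fell by 0.62. With the group means removed, r lay between 0.825 and 0.988 for the genes with the highest r and between -0.995 and -0.931 for those with the lowest. The genes were picked by r over the same 6 arrays, so these values are not a separate check.

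Array medians over all 53617 probe sets, most of them unnamed, were 3.96 to 3.99, and every member lay above them on every array. Among the 14884 genes, ranked by mean level, EGR3 lay at percentile 48.1 and FOSB, the next lowest member, at 65.5. Of the markers of the line, FN1 at 12.11, VIM at 10.54 and CD44 at 8.99 were bright in unexposed cells, while the glial markers GFAP at 4.86 and OLIG2 at 4.71 lay near the array medians, and S100B at 3.68 and SOX2 at 3.57 below them. CHI3L1 was at 8.74 and NES at 6.87. Of these 9 markers 0 passed and 3 had an unadjusted p under 0.05 in limma, beside 18.9% of all genes. The 3 were GFAP with a change of 0.35, S100B with -0.42 and FN1 with -0.17. For 5 of the 9 markers the groups did not overlap, beside 27.0% of all genes. Their part in the results above was not tested. Of 13 markers of other cell types 6 were measured, with 0 past the threshold and 0 at an unadjusted p under 0.05 in limma. Their group means ran from 2.97 to 5.37, except for CD68, a lysosomal protein of myeloid and other cells, at 12.24 and 12.30.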

How the data were processed

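Total RNA of 3 exposed and 3 unexposed U-87 MG cultures was measured on 1-colour Affymetrix arrays, and groups were taken from the sample titles. The source names match the titles, but the description of each exposed sample calls its cells both exposed and control, so the sign of every change rests on the titles and source names. The deposited table holds log2 values that the authors summarised with RMA (background correction, normalization between arrays, 1 value per probe set), per the submitters' processing notes, which list Transcriptome Analysis Console 3.0 and Affymetrix Expression Console 3.0 as tools. Other settings were not given in the sources used here. RMA makes array distributions alike, so a change in total RNA per cell is not visible. There are no detection calls, and precision is limited by the number of arrays.

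Of 53617 probe sets, 16098 carried 1 gene symbol, 0 carried several and 37519 were unnamed here. The differences were computed with limma 3.58.1 in R 4.3.3 (lmFit, two-sided, no covariates, eBayes with trend) over all probe sets, and p-values were adjusted over the 14884 brightest probe sets per gene, with a threshold of 0.05. Errors are SE or SD as stated, and intervals are 95% intervals.

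The members and gene lists were chosen with earlier results of these data known. The text names every measured member, the 2 genes with the smallest p in each direction per related list, and the 5 highest and 3 lowest by r to FOS and to JUNB (above the median level, without clone or locus names). Other genes were named after their values were seen. Upstream sequences are RefSeq's. Figures were drawn with matplotlib 3.10.9. On simulated arrays with all 14884 genes, recovery was 34% for genes with a change of 0.5 log2 and 79% for a change of 1 log2. There the fit called 4 unchanged genes, and it called 0 where nothing was changed. The simulation changed a small share of the genes and drew normal noise independently for each probe set and array. Deviations that genes share on an array were not simulated, so these rates need not hold for the real arrays. Alternatives were a replicate block, other scalings, no trend, no moderation, a level filter, other ways to summarise a gene, further probe sets, and each array left out.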

Additional observations from a re-analysis of the deposited data

How the results depend on the processing

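FOS, JUNB, FOSB, FOSL1, FOSL2, JUN, JUND and EGR1 kept their direction in all 15 alternative fits and EGR3 in 12: EGR3 was at 0.0671 after centring on ribosomal protein genes, 0.0381 without unexposed replicate 2 and 0.0817 without exposed replicate 2, within a range of -0.10 to 0.08 with 1 array left out. The FOS change was 0.59 but not past the threshold (limma adjusted p) with the replicate block (0.137), without a mean-variance trend (0.163) and without variance moderation (0.157), was 0.42 on the dimmer probe set 16794955, and lay between 0.49 and 0.67 with 1 array left out. JUNB passed at 0.55 with quantile normalization again, at 0.51 in a fit limited to brighter probe sets (above the median level), to gene averages or to the brightest probe set per gene, and lay between 0.42 and 0.61 with 1 array left out.

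Centring on ribosomal protein genes moved all changes upward, and the median of all genes went from 0.0029 to 0.0921. It put JUND at -0.04, FOSL1 at -0.13, FOSL2 at 0.21 and JUN at 0.16, and the list medians at 0.02 for bZIP and EGR partners, -0.02 for kinases, -0.03 for AP-1 targets, -0.01 for EGR1 targets, 0.11 for other immediate early genes, 0.21 for the SRF group and 0.18 for the phosphatases.

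The number of members past the threshold was 1, and 0 with the replicate block, no trend or no moderation (5, 4 and 5 at an unadjusted p under 0.05), 2 with quantile normalization again (FOS, JUNB) or above the median level (FOS, JUNB), 4 with gene averages (EGR1, FOS, FOSL1, JUNB) and 5 with the brightest probe sets alone (with FOSB). With 1 array left out it was 0 or 1. Genes past the threshold numbered 456, and 0 with the replicate block (2286 at an unadjusted p under 0.05 in limma), 0 without a trend (2220), 4 without moderation, 253 centred on ribosomal protein genes, 753 above the median level, 1173 with gene averages, 1209 with the brightest probe sets alone and 0 to 325 with 1 array left out. Of the 89 related genes 10 passed, and 0 with the replicate block, no trend or no moderation, 5 centred on ribosomal protein genes, 20 with gene averages or the brightest probe sets alone, and 0 to 9 with 1 array left out. The fits of gene averages and of the brightest probe sets hold named genes alone, and for other settings the cause was not tested. Replicate numbers did not pair the arrays, since deviations from the group means of same-numbered arrays correlated at -0.0164, -0.0253 and 0.00964, and not every array correlated best with its own number.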
